A study of Mus musculus with 6 samples.

Results

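Genes of sterol and fatty acid synthesis were followed by RNA sequencing in mouse HT22 cells, an immortalized line of hippocampal neuronal origin, with and without induction of the transcription factor KLF13. The set holds 36 genes chosen by symbol, all of which had a row among the 29493 genes of the count table, and 35 had enough counts to be tested. They comprise 5 regulators of lipid synthesis, 18 enzymes that make cholesterol, 5 genes of sterol uptake, movement and export, and 8 genes of fatty acid synthesis. All 6 libraries came from a single stably transfected line, labelled HT22-TR/TO-V5Klf13-1, which carries V5-tagged Klf13 under the tet repressor. In 3 libraries the cells had received doxycycline (Dox) at 1 µg/ml for 8 hours, and 3 libraries were labelled vehicle. The line is the only one sequenced, and none of these libraries has doxycycline in cells without the transgene, so effects of the drug and of KLF13 cannot be told apart. Separate cultures are not stated in the labels for the 3 samples of a group, so the p-values cover the spread among these samples only, and that spread may be technical.

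Cholesterol is made from acetyl-CoA through mevalonate, the isoprenoid farnesyl diphosphate, squalene and lanosterol. The pathway is controlled by the transcription factor SREBP2, encoded by Srebf2, while SREBP1, encoded by Srebf1, acts more on fatty acid genes. Both precursors are carried from the endoplasmic reticulum to the Golgi by SCAP when sterols are low, and are held back by the INSIG proteins when sterols are high. Neurons and their cell lines need cholesterol and long unsaturated fatty acids for membranes and synapses.

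Libraries held 38566798 to 52930384 counts. Klf13 was at 36.1 to 39.1 CPM (counts per 1000000, scaled to the effective library size) in the vehicle libraries and at 184 to 205 CPM in the Dox libraries, a 5.13-fold rise (log2 fold change 2.36 ± 0.054 SE, adjusted p = 1.5e-06), so every library matched its label. Its endogenous and transgene reads cannot be separated. Of 12 listed general neuronal markers 7 were analysed, and 4 reached 1 CPM in either group (Tubb3, Syn1, Dlg4 and Eno2, all of which fell), while Map2, Syp and Gap43 had means under 0.25 CPM. The summed level of the list was 95.7 to 96.8 CPM with vehicle and 31.9 to 33.4 CPM with Dox. Of 8 listed markers of hippocampal neurons 4 were analysed, and none reached 1 CPM in either group (Prox1 was at 0 with vehicle and Grin1 at 0 with Dox). Fibroblast markers, led by the collagen genes Col1a1 and Col1a2, summed to 7598 to 8060 CPM with vehicle and 5976 to 6245 CPM with Dox, and 5 of 6 reached 1 CPM (Lum was at 0 with vehicle). The astrocyte list summed to 37.3 to 40.1 CPM with vehicle and 44.1 to 47.3 CPM with Dox, nearly all of it Slc1a3, with 1 of 4 analysed genes at 1 CPM. Oligodendrocyte markers summed to 1.72 to 2.25 and 1.03 to 1.27 CPM, and microglia markers, nearly all Tmem119, to 29.9 to 32.1 and 19.9 to 20.8 CPM. These lists moved with the same contrast as the genes below, and their part in those results was not tested. In bulk RNA, fewer cells of a type and less RNA per cell cannot be told apart.

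The pathway did not move as a block. Of the 35 tested genes, 11 rose, 15 fell and 9 did not pass the test (edgeR quasi-likelihood test, adjusted p under 0.05 over all 18067 genes tested). Together 74.3% were called, where 54.7% of all tested genes were called. That 54.7% includes genes of low level. With only genes at a mean of at least 5 CPM, 4072 of 11629 genes rose and 4176 fell. With that filter 12 members rose and 13 fell, so the set lies closer to the share of genes at that level. Rises made up 31.4% of the set against 25.9% of all tested genes, and falls 42.9% against 28.8%. The median log2 fold change was -0.0083 in the set and 0.018 over all tested genes. The 3 Dox libraries all lay above the 3 vehicle libraries for 12 of the 35 genes and all below for 16, where 31.8% and 32.2% of all tested genes did so. Of the 35, 3 (Srebf2, Hmgcs1 and Abca1) fell at least 2-fold and 0 rose that much, where 7.51% and 1.74% of all tested genes did, so these counts are near those shares. Mvk had the largest rise of the set and Srebf2 the largest fall.

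**Figure D1:**
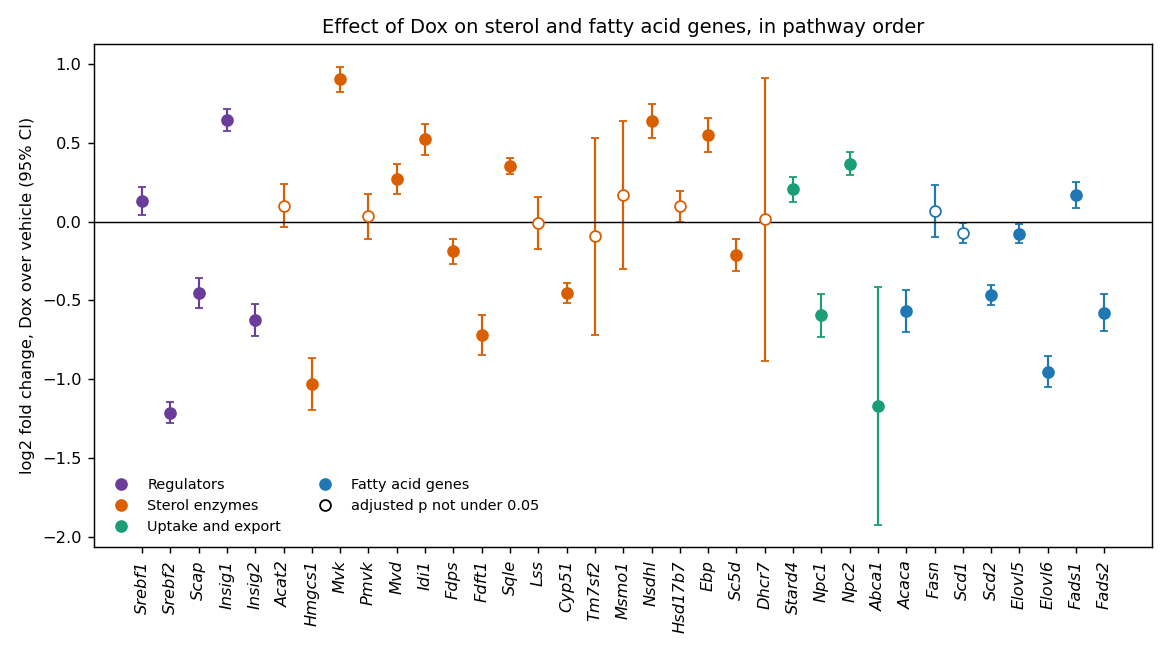
Log2 fold change of Dox over vehicle for the 35 tested genes, in pathway order from left to right within each group. Points are estimates from 3 libraries against 3, bars are 95% confidence intervals, and open points did not pass an adjusted p of 0.05; neighbouring sterol enzymes lie on both sides of 0, from Hmgcs1 at -1.03 to Mvk at 0.90.

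Promoter sequences are given for the genes with the largest rise (Mvk) and the largest fall (Srebf2), for the INSIG and SREBF pairs, whose members moved apart, and for Hmgcs1, which had the largest fall among the enzymes and was picked after its values were seen. They are the bases upstream of the most upstream RefSeq start on GRCm38.p6, 5′ to 3′ on the gene's strand, out of a window of 250 bases, less any stretch that GENCODE M21 annotates as an exon. Capitals mark matches, on either strand, to 4 motifs: TCACNCCAC (a sterol regulatory element bound by SREBP), CCAAT (bound by NF-Y), GGGCGG (the GC box of SP and KLF factors) and CACCC (bound by KLF factors). A GGGCGG or CACCC match can overlap another motif, as in the TCACCCCAC of Hmgcs1, which holds a CACCC.
Mvk, chr5:114444061-114444268, plus strand: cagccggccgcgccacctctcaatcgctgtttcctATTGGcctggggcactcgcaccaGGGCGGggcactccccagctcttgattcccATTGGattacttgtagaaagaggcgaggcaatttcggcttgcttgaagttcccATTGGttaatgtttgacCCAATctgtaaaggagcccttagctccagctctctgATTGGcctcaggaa
Srebf2, chr15:82147019-82147180, plus strand: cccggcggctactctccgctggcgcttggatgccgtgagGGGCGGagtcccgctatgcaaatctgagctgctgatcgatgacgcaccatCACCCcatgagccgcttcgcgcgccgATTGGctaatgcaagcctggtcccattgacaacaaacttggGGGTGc
Insig1, chr5:28071162-28071362, plus strand: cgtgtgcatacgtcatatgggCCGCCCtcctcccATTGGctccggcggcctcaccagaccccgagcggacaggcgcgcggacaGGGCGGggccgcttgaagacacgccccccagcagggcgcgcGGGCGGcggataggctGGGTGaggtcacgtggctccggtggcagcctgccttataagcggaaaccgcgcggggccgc
Insig2, chr1:121332590-121332839, minus strand: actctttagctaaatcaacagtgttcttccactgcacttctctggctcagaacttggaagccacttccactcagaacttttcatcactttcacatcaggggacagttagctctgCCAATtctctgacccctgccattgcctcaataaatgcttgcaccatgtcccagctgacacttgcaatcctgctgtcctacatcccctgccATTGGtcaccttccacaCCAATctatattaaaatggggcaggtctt
Srebf1, chr11:60222582-60222831, minus strand: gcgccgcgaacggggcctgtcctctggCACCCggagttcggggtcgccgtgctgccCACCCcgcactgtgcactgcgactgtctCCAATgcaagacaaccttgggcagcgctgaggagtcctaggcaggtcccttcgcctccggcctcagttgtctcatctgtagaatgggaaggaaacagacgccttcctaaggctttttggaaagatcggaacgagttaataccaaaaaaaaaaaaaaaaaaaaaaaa
Hmgcs1, chr13:119690101-119690350, plus strand: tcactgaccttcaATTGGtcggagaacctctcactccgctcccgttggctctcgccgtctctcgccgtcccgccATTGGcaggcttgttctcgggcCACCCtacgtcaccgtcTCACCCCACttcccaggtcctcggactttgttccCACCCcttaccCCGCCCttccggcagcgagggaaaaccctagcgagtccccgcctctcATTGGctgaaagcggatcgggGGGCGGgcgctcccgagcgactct

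In the full windows of 250 bases, Mvk held 5 CCAAT matches, 2 GC boxes and 1 CACCC match, and Srebf2 held 1 CCAAT match, 4 GC boxes and 2 CACCC matches. The printed stretches, which leave out annotated exons, held 1 GC box for Srebf2, and 1 GC box and no CACCC match for Mvk. Insig1 held 1 CCAAT match, 3 GC boxes and 1 CACCC match, and Insig2 held 3 CCAAT matches and no match to the other 3 motifs. Insig2 and Srebf1 each have 3 listed starts, and which of them HT22 cells use was not measured. A window was found for 27 of the 36 genes, and Fdps, Fdft1, Sqle, Stard4, Npc1, Abcg1, Scd1, Scd2 and Fads1 had none. Among the 15 sterol enzymes with a window, 13 held CCAAT and 14 held GGGCGG, where 37.5% and 57.5% of 10219 tested genes with a window did. Within the sterol enzymes both motifs were in all 5 windows of enzymes that rose and all 3 of those that fell. Of 7 that did not pass 5 held CCAAT and 6 held GGGCGG. Motifs held by nearly all of these few windows could not separate rises from falls there. The CACCC motif was in 2 of the 5, 2 of the 3 and 5 of the 7, where 56.3% of tested genes with a window held it. Over all members with a window, CCAAT was in 8 of 8 that rose and 6 of 11 that fell. GGGCGG was in 7 of the 8 and 6 of the 11, and CACCC in 4 and 5. Over all tested genes with a window, CCAAT was in 44.2% of rises and 31.9% of falls. The shares were 51.3% and 69.5% for GGGCGG and 51.3% and 61.6% for CACCC. Of the 5 fatty acid genes with a window, 2 held CCAAT and 1 held GGGCGG. TCACNCCAC was in the window of 1 member, Hmgcs1, at 137 bases upstream of the start. It was in 0.949% of tested genes with a window and in 1.03% of all 27025 windows. Sites that differ from it by 1 letter were not searched for, so genes without a match may still hold a site. These are matches of letters in one window per gene, and binding was not measured.

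The regulators of the pathway split, with the largest fall in Srebf2. For Srebf2 the vehicle libraries held 228, 235 and 221 CPM and the Dox libraries 97.8, 98.4 and 99.2 CPM (mean 228 ± 6.53 and 98.5 ± 0.677, SD, n = 3 each). Every Dox library was below every vehicle library, by a wide margin. The log2 fold change was -1.21 ± 0.028 (SE), a 2.32-fold fall (adjusted p = 1.5e-06). Srebf2 lies at chr15:82147181-82205379 (GRCm38), and no other annotated gene shares at least 50 exonic bases with it. The level of Srebf1 was 65.2, 62.7 and 61.0 CPM with vehicle and 67.9, 70.7 and 68.3 CPM with Dox (mean 63.0 ± 2.12 and 68.9 ± 1.54, SD, n = 3 each). The Dox libraries were above the vehicle libraries by a small step, with a log2 fold change of 0.13 ± 0.036 (SE) and an adjusted p of 0.021. The call for Srebf1 was lost without Dox replicate 2 (adjusted p = 0.071), Vehicle replicate 2 (0.056) or Vehicle replicate 3 (0.069). Srebf1 shares 109 exonic bases with Rai1, which fell by 0.46 on the log2 scale, and at least 50 with Mir6922, which was not tested. The log2 fold change of Srebf1 was 0.23 with upper-quartile scaling, 0.22 with the length offset and 0.34 with the GC offset.

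In both groups the level of Srebf1 per kilobase of exon was below that of Srebf2, but the distance closed. The ratio of Srebf1 to Srebf2 (CPM per kilobase of exon) was 0.365, 0.341 and 0.351 in vehicle replicates 1, 2 and 3 and 0.884, 0.916 and 0.878 in Dox replicates 1, 2 and 3. Srebf2 ranked 4th of the 36 genes by level per length with vehicle (31.7 ± 0.909 CPM per kilobase, SD, n = 3) and 15th with Dox (13.7 ± 0.0942).

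Scap, which encodes the escort protein of both SREBP precursors, fell. With vehicle Scap stood at 87.2, 91.5 and 89.2 CPM, and with Dox at 64.6, 68.2 and 63.1 CPM (mean 89.3 ± 2.18 and 65.3 ± 2.66, SD, n = 3 each). The groups did not overlap, and the log2 fold change was -0.45 ± 0.039 (SE, adjusted p = 1.1e-04). Scap shares 985 exonic bases with 5830462I19Rik, which was at 1.14 CPM with vehicle and 0.908 CPM with Dox. With the GC offset the log2 fold change of Scap was -0.22, still called.

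The INSIG genes, which retain the SCAP and SREBP complex in the endoplasmic reticulum, moved in opposite directions. Insig1 was at 31.3, 31.3 and 30.9 CPM in vehicle replicates 1 to 3 and at 48.2, 48.8 and 49.1 CPM in Dox replicates 1 to 3 (mean 31.2 ± 0.267 and 48.7 ± 0.461, SD, n = 3 each). For Insig2 the vehicle libraries held 36.1, 38.7 and 36.9 CPM and the Dox libraries 23.8, 24.7 and 24.2 CPM (mean 37.3 ± 1.33 and 24.2 ± 0.447, SD, n = 3 each). Insig1 was higher in every Dox library and Insig2 lower in every one. The log2 fold changes were 0.64 ± 0.030 for Insig1 (SE, adjusted p = 8.8e-06) and -0.62 ± 0.042 for Insig2 (SE, adjusted p = 3.6e-05). Per kilobase of exon they stood near parity with vehicle, with Insig1 to Insig2 ratios of 0.908 to 0.973, and Insig1 was more than double Insig2 with Dox, at 2.22 to 2.28. Insig1 is a known target of SREBP and Insig2 is not controlled by it in the same way.

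**Figure D2:**
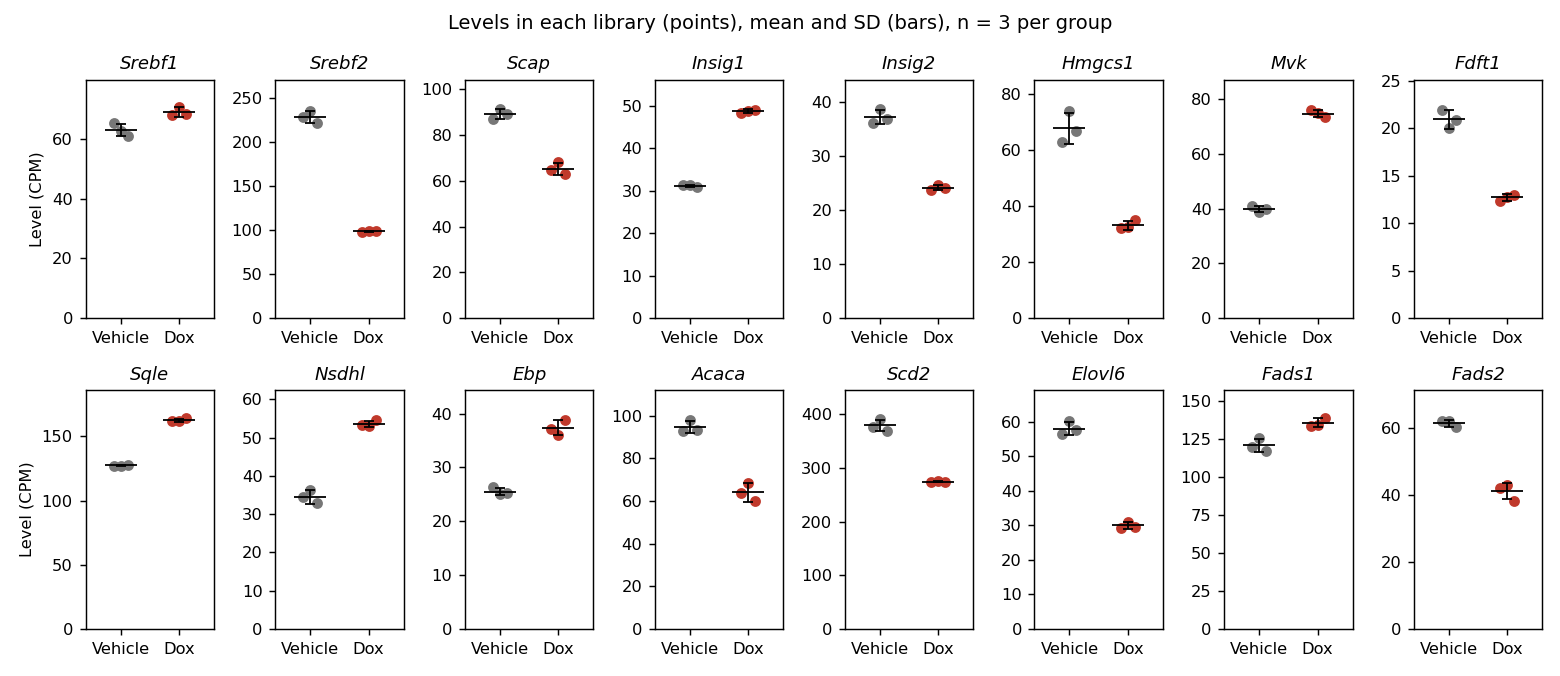
Level in CPM (vertical axis, from 0) of 16 genes in each library, with vehicle in grey and Dox in red; bars give the mean and SD of 3 libraries. All 16 are called members, and the 7 tested members whose groups overlapped are not shown. The choice of genes thus fixed that the groups are apart in every panel. They are apart narrowly for Srebf1 (65.2 at most with vehicle, 67.9 at least with Dox) and widely for Srebf2. Over all tested genes, 31.8% had all Dox libraries above and 32.2% all below the vehicle libraries.

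Among the 18 sterol enzymes, 6 rose, 5 fell and 7 did not pass, with a median log2 fold change of 0.065. In percent, 33.3% of them rose and 27.8% fell, beside the 25.9% and 28.8% of all tested genes. With upper-quartile scaling 8 rose and 4 fell, and 6246 of all tested genes rose and 4457 fell, against 4687 and 5203 with the main scaling. Rises and falls were mixed along the pathway. Of the 7 enzymes from acetyl-CoA to farnesyl diphosphate, 3 rose (Mvk, Mvd and Idi1) and 2 fell (Hmgcs1 and Fdps). Of the 11 from squalene synthase onwards, 3 rose (Sqle, Nsdhl and Ebp) and 3 fell (Fdft1, Cyp51 and Sc5d).

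At the entry to the pathway, Hmgcs1, the cytosolic HMG-CoA synthase, also fell more than 2-fold. The level of Hmgcs1 was 62.8, 73.8 and 66.6 CPM with vehicle and 32.2, 32.3 and 35.0 CPM with Dox (mean 67.7 ± 5.58 and 33.2 ± 1.57, SD, n = 3 each). The lowest vehicle library was well above the highest Dox library. The fall was 2.04-fold (log2 fold change -1.03 ± 0.069 SE, adjusted p = 3.6e-05). Acat2, the cytosolic acetoacetyl-CoA thiolase of the step before, did not pass: its vehicle libraries were at 86.4 to 92.6 CPM and its Dox libraries at 90.9 to 103 CPM, with a 95% confidence interval of -0.033 to 0.24 for the log2 fold change. Hmgcs1 shares 557 exonic bases with Gm48342, for which no value is given here.

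Mvk, the mevalonate kinase, had the largest rise of the set. With vehicle Mvk stood at 41.1, 39.0 and 40.0 CPM, and with Dox at 75.9, 74.9 and 73.6 CPM (mean 40.0 ± 1.06 and 74.8 ± 1.17, SD, n = 3 each). The groups did not overlap, and the rise was 1.87-fold (log2 fold change 0.90 ± 0.033 SE, adjusted p = 3.9e-06). Mvk lies at chr5:114444269-114460591 on the plus strand, and 208 bases separate its start from that of Mmab, a gene of cobalamin metabolism transcribed the other way. Mmab, looked at after the Mvk values were seen, was at 20.04, 21.2 and 20.3 CPM with vehicle and 28.9, 28.4 and 29.5 CPM with Dox. It rose by 0.50 ± 0.041 on the log2 scale (SE, adjusted p = 9.1e-05). Both genes of this head-to-head pair were thus higher in every Dox library, Mvk by more.

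The enzymes after Mvk changed less. Pmvk, the phosphomevalonate kinase, did not pass (log2 fold change 0.033, 95% confidence interval -0.11 to 0.18). Mvd was at 18.9, 19.1 and 18.8 CPM in vehicle replicates 1 to 3 and at 23.0, 23.1 and 22.3 CPM in Dox replicates 1 to 3 (mean 18.9 ± 0.165 and 22.8 ± 0.427, SD, n = 3 each). Mvd, the mevalonate diphosphate decarboxylase, rose by 0.27 ± 0.039 on the log2 scale (SE, adjusted p = 0.0012), and by 0.51 with the GC offset. For Idi1 the vehicle libraries held 31.9, 34.4 and 33.8 CPM and the Dox libraries 46.9, 48.1 and 48.7 CPM (mean 33.4 ± 1.31 and 47.9 ± 0.912, SD, n = 3 each). Idi1, the isopentenyl diphosphate isomerase, rose 1.43-fold (log2 fold change 0.52 ± 0.041 SE, adjusted p = 7.1e-05), and shares 323 exonic bases with Gm48574. The level of Fdps was 64.9, 66.5 and 65.6 CPM with vehicle and 58.3, 55.7 and 59.1 CPM with Dox (mean 65.7 ± 0.803 and 57.7 ± 1.73, SD, n = 3 each). Fdps, the farnesyl diphosphate synthase, fell by 0.19 ± 0.033 on the log2 scale (SE, adjusted p = 0.0030), and that call was lost with upper-quartile scaling (-0.093, adjusted p = 0.055). Its fall was small beside that of Hmgcs1, though the groups did not overlap. Fdps shares 1124 exonic bases with Gm43738, at 0.362 CPM with vehicle and 1.09 CPM with Dox.

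The next pair of enzymes, which commit farnesyl diphosphate to sterols, went opposite ways. With vehicle Fdft1 stood at 21.9, 19.98 and 20.9 CPM, and with Dox at 12.4, 12.8 and 13.0 CPM (mean 20.9 ± 0.972 and 12.7 ± 0.319, SD, n = 3 each). Fdft1, the squalene synthase, fell 1.65-fold (log2 fold change -0.72 ± 0.052 SE, adjusted p = 5.1e-05). It shares 774 exonic bases with Ctsb, at 265 CPM with vehicle and 249 CPM with Dox, so part of its counts may belong to that neighbour. Sqle was at 127, 127 and 128 CPM in vehicle replicates 1 to 3 and at 162, 162 and 164 CPM in Dox replicates 1 to 3 (mean 127 ± 0.607 and 163 ± 1.31, SD, n = 3 each). Sqle, the squalene epoxidase, a rate-limiting step of the pathway, rose 1.28-fold (log2 fold change 0.35 ± 0.021 SE, adjusted p = 2.2e-05). Sqle varied by less than 1% (coefficient of variation) among libraries of a group, the smallest spread of any enzyme with vehicle. Lss, which closes the rings to lanosterol, did not pass (log2 fold change -0.0083, 95% confidence interval -0.17 to 0.16), and shares 381 exonic bases with 4930483K19Rik, at 0.344 CPM with vehicle.

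Among the enzymes that turn lanosterol into cholesterol, Cyp51 and Sc5d fell while Nsdhl and Ebp rose. For Cyp51 the vehicle libraries held 98.8, 101 and 97.5 CPM and the Dox libraries 71.3, 73.2 and 72.6 CPM (mean 99.0 ± 1.57 and 72.4 ± 0.983, SD, n = 3 each). Cyp51, the lanosterol demethylase, was lower in every Dox library, with a log2 fold change of -0.45 ± 0.027 (SE, adjusted p = 2.1e-05). It shares 166 exonic bases with Akap9, which fell by 0.71 on the log2 scale. The level of Nsdhl was 34.4, 36.3 and 32.8 CPM with vehicle and 53.2, 53.1 and 54.6 CPM with Dox (mean 34.5 ± 1.71 and 53.6 ± 0.826, SD, n = 3 each). Nsdhl, a sterol dehydrogenase of the C4 demethylation, rose 1.56-fold (log2 fold change 0.64 ± 0.044 SE, adjusted p = 4.2e-05). With vehicle Ebp stood at 26.3, 25.0 and 25.2 CPM, and with Dox at 37.2, 36.01 and 38.8 CPM (mean 25.5 ± 0.700 and 37.3 ± 1.42, SD, n = 3 each). Ebp, the sterol isomerase, rose 1.46-fold (0.55 ± 0.044 SE on the log2 scale, adjusted p = 8.2e-05). Nsdhl and Ebp, both on chromosome X, thus stood apart from the vehicle libraries in every Dox library. Sc5d, the sterol desaturase, was at 46.3 to 50.9 CPM with vehicle and 41.8 to 42.0 CPM with Dox, a log2 fold change of -0.21 ± 0.042 (SE, adjusted p = 0.0050), which was -0.12 with upper-quartile scaling and -0.098 with the length offset.

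For 4 enzymes of this stretch the libraries did not show a call. Hsd17b7, a sterol ketone reductase, was 34.0 to 34.9 CPM with vehicle and 35.2 to 38.0 CPM with Dox, without overlap, but its adjusted p was 0.086. It was called higher with upper-quartile scaling (adjusted p = 0.0054), the filter at 5 CPM (0.035) and the length offset (0.0028), and without Dox replicate 1 (0.045). Msmo1, the C4 methyl oxidase, was 47.3, 30.8 and 45.7 CPM with vehicle and 37.9, 48.3 and 53.1 CPM with Dox, and the 95% confidence interval of its log2 fold change was -0.30 to 0.64. The groups overlapped. Dhcr7, the last reductase of the pathway, was 10.0, 20.5 and 11.4 CPM with vehicle and 10.0, 11.5 and 20.7 CPM with Dox. In Dhcr7 1 library of each group was about double the others. The 95% confidence interval of its log2 fold change was wide, at -0.89 to 0.91, so rises and falls within that range remain possible. Tm7sf2, a sterol reductase, was low, with 49 to 105 counts per library and an interval of -0.72 to 0.53. It shares 532 exonic bases with Vps51, at 48.8 CPM with vehicle, so its counts are uncertain.

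Of the 4 tested genes of cholesterol movement, 2 rose and 2 fell, beside 25.9% and 28.8% of all tested genes, and 1 of the falls is Abca1 at 5 to 18 counts per library. NPC1 and NPC2 act together to release cholesterol from lysosomes, and their genes moved apart. Npc1 was at 32.9, 36.4 and 35.0 CPM in vehicle replicates 1 to 3 and at 21.8, 23.5 and 23.7 CPM in Dox replicates 1 to 3 (mean 34.8 ± 1.79 and 23.0 ± 1.06, SD, n = 3 each). Npc1, the membrane protein, fell 1.51-fold (log2 fold change -0.60 ± 0.057 SE, adjusted p = 1.8e-04). For Npc2 the vehicle libraries held 106, 102 and 104 CPM and the Dox libraries 132, 133 and 138 CPM (mean 104 ± 1.98 and 134 ± 3.38, SD, n = 3 each). Npc2, the soluble partner, rose 1.29-fold (0.37 ± 0.030 SE on the log2 scale, adjusted p = 8.1e-05). The ratio of Npc2 to Npc1 per kilobase of exon was 5.83 to 6.71 with vehicle and 11.8 to 12.6 with Dox. Npc1 shares 511 exonic bases with Rmc1 and at least 50 with Gm15956. Stard4, a sterol carrier of the cytosol, rose from 55.5 to 58.4 CPM with vehicle to 64.2 to 66.6 CPM with Dox (log2 fold change 0.21 ± 0.033 SE, adjusted p = 0.0020; 0.33 with the length offset).

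The exporters of sterol were barely expressed. Abca1 had 18, 16 and 17 counts in the vehicle libraries and 5, 8 and 11 in the Dox libraries. All 3 Dox libraries were lower, with a log2 fold change of -1.17 ± 0.31 (SE, adjusted p = 0.019). The call was lost with DESeq2's Wald test (adjusted p = 0.12), with a replicate block (0.063), with the length offset (0.054) and without Dox replicate 1 (0.054), Dox replicate 2 (0.062) or Vehicle replicate 1 (0.060). Abcg1 had 0 to 2 counts per vehicle library and 0 to 6 per Dox library, and was not tested.

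Of the 8 fatty acid genes tested, 5 fell, 1 rose and 2 did not pass. Their median log2 fold change was -0.27, beside 0.018 over all tested genes. In percent, 62.5% of them fell, beside 28.8% of all tested genes. Elovl5, 1 of the 5 that fell, changed by only -0.076 and kept its call in 3 of 17 alternatives. With the filter at a mean of 5 CPM, 4 of these genes fell, beside 4176 of 11629 genes. The wider list of 22 tested fatty acid genes, given below, had 6 rises and 6 falls, so a fall of fatty acid genes in general was not seen. Among the 8, Elovl6, which elongates palmitate to stearate, fell furthest. The level of Elovl6 was 56.4, 60.2 and 57.6 CPM with vehicle and 29.4, 31.1 and 29.6 CPM with Dox (mean 58.1 ± 1.92 and 30.0 ± 0.915, SD, n = 3 each). Each Dox library was far below each vehicle library, a 1.93-fold fall (log2 fold change -0.95 ± 0.041 SE, adjusted p = 6.7e-06). With vehicle Acaca stood at 92.7, 97.9 and 93.4 CPM, and with Dox at 63.8, 68.4 and 59.8 CPM (mean 94.7 ± 2.85 and 64.0 ± 4.35, SD, n = 3 each). Acaca, the acetyl-CoA carboxylase that starts fatty acid synthesis, fell 1.48-fold (log2 fold change -0.56 ± 0.055 SE, adjusted p = 1.9e-04), with a log2 fold change of -0.32 under the length offset. Fasn, the fatty acid synthase of the next step, did not pass: its vehicle libraries were at 399.5 to 459.6 CPM and its Dox libraries at 418 to 470.2 CPM, and the 95% confidence interval of its log2 fold change was -0.099 to 0.23. With offsets for transcript length or GC content, which were added after seeing the data, Fasn was called higher (0.32, adjusted p = 6.1e-04, and 0.25, adjusted p = 0.024). The step before and the step of Fasn itself thus differed in their calls, and the difference between the genes was not tested.

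The desaturase genes separated within each family. Scd2, the stearoyl-CoA desaturase with the highest level per length of the set (69.4 ± 1.99 CPM per kilobase with vehicle, SD, n = 3), fell. Scd2 was at 377, 391 and 369.7 CPM in vehicle replicates 1 to 3 and at 274, 275 and 273 CPM in Dox replicates 1 to 3 (mean 379 ± 10.9 and 274 ± 0.818, SD, n = 3 each). Its log2 fold change was -0.47 ± 0.026 (SE, adjusted p = 1.7e-05), and it shares 61 exonic bases with Mir5114. Scd1, its close relative, was 138 to 142 CPM with vehicle and 131 to 136 CPM with Dox, and did not pass (log2 fold change -0.072 ± 0.026 SE, adjusted p = 0.053). Such relatives can share reads, and the treatment of reads with several matching genes is not given in the sources used here. For Fads1 the vehicle libraries held 119.7, 126 and 117 CPM and the Dox libraries 134, 134 and 139 CPM (mean 121 ± 4.25 and 136 ± 2.90, SD, n = 3 each). The level of Fads2 was 62.0, 62.0 and 60.3 CPM with vehicle and 42.1, 43.0 and 38.3 CPM with Dox (mean 61.4 ± 0.992 and 41.2 ± 2.48, SD, n = 3 each). Fads1 and Fads2, the delta-5 and delta-6 desaturases of polyunsaturated fatty acids, lie near each other on chromosome 19 on opposite strands. Fads1 was higher and Fads2 lower in every Dox library, with log2 fold changes of 0.17 ± 0.034 (SE, adjusted p = 0.0058) and -0.58 ± 0.049 (SE, adjusted p = 1.1e-04). With upper-quartile scaling the value of Fads1 was 0.26. Elovl5, an elongase of polyunsaturated fatty acids, went from 87.6 to 89.2 CPM with vehicle to 82.8 to 84.8 CPM with Dox. It fell by 0.076 on the log2 scale (adjusted p = 0.041), and this was lost without any 1 library (adjusted p = 0.058 without Vehicle replicate 2 to 0.15 without Dox replicate 1), while the value was 0.017 with upper-quartile scaling.

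**Figure D3:**
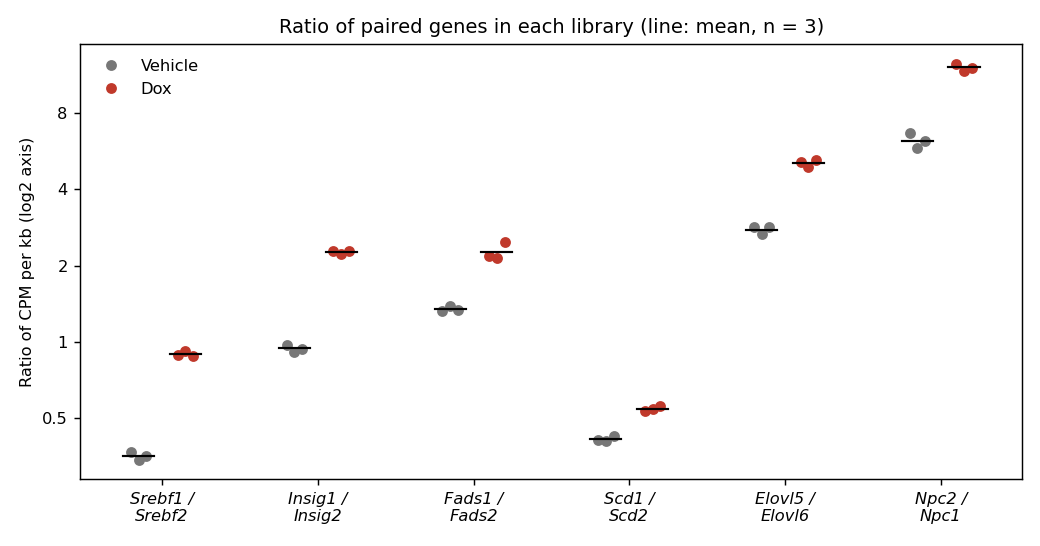
Ratio of CPM per kilobase of exon (log2 axis) for 6 pairs of genes in each library, with vehicle in grey, Dox in red and lines at the means of 3 libraries. The ratios restate the levels of the single genes, with the gene of higher log2 fold change as numerator, so all are higher with Dox. The ratios of the groups do not overlap in any pair. Insig1 to Insig2 goes from 0.94 to 2.26 and Srebf1 to Srebf2 from 0.35 to 0.89.

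Within every pair that was compared by ratio, the libraries of a group lay close together beside the distance between groups. These ratios restate the levels of genes given above, so their separation is not added evidence. In each pair the gene with the higher log2 fold change is the numerator, so every ratio is higher with Dox. Ratios of other gene pairs were not computed. The ratio of Fads1 to Fads2 was 1.35 ± 0.0353 with vehicle and 2.27 ± 0.190 with Dox, and that of Scd1 to Scd2 was 0.413 ± 0.00960 and 0.542 ± 0.0115 (SD, n = 3 each). For Elovl5 to Elovl6 it was 2.77 ± 0.102 with vehicle and 5.09 ± 0.180 with Dox (SD, n = 3 each). A ratio shows unequal change of its genes, not which of them changed.

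**Figure D4:**
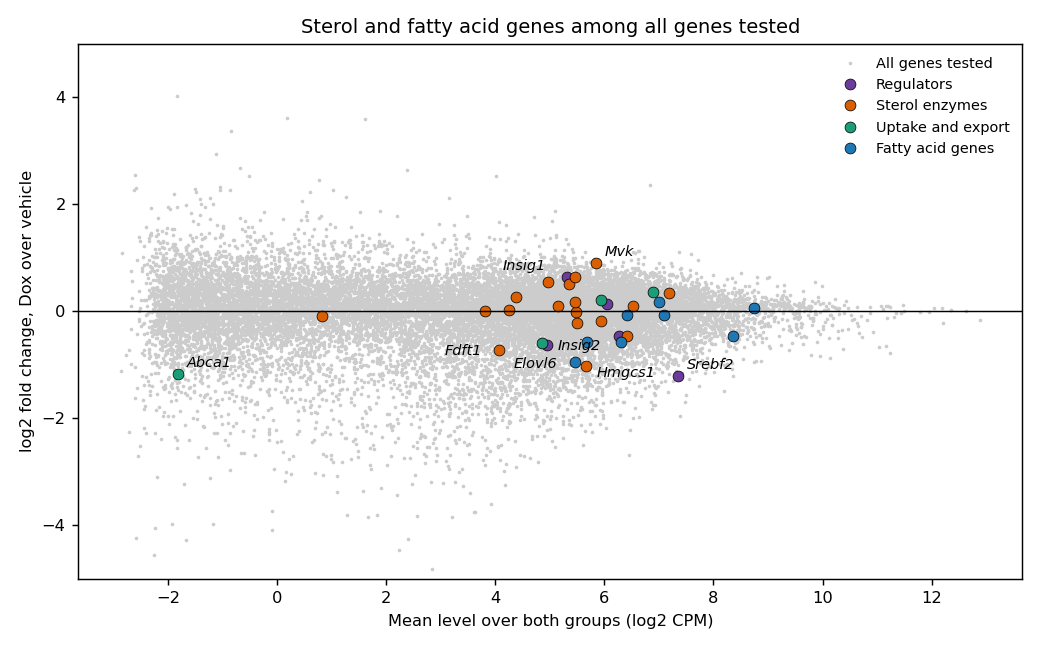
Log2 fold change (vertical axis, -5 to 5, which leaves out 9 genes) against mean level in log2 CPM for all 18067 tested genes in grey and the 35 tested members in colour. The members lie inside the spread of the grey points, from Srebf2 at -1.21 to Mvk at 0.90.

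The other genes of these pathways were counted from lists. Of 61 listed genes 52 were in the table and 51 were tested. Of the tested genes 14 rose, 18 fell and 19 did not pass, so 62.7% were called beside 54.7% of all tested genes. That 54.7% includes genes of low level, and the share is higher among genes at a mean of at least 5 CPM. Rises made up 27.5% and falls 35.3%, beside 25.9% and 28.8% of all tested genes. Among 9 tested genes of SREBP processing and sterol sensing, 2 rose and 4 fell (22.2% and 44.4%, beside the same 25.9% and 28.8%). Erlin2, which takes part in the sterol-driven breakdown of pathway proteins in the endoplasmic reticulum, fell by 0.97 ± 0.044 on the log2 scale (SE). Mylip, a ubiquitin ligase of lipoprotein receptors, and Mbtps1, the site-1 protease that cuts SREBP, rose by 0.49 ± 0.045 and 0.15 ± 0.026 (SE). Among 9 genes of thiolase, prenyl and dolichol branches, 3 rose and 2 fell (33.3% and 22.2%, near the shares of all tested genes). Fnta, the alpha subunit of protein farnesyltransferase, fell from 59.8 ± 1.68 to 25.6 ± 1.94 CPM (SD, n = 3 each), and Aacs, acetoacetyl-CoA synthetase, fell by 0.18 ± 0.027 on the log2 scale (SE). Dhdds, of dolichol synthesis, rose by 0.61 ± 0.18 and Acat1, the mitochondrial thiolase, by 0.44 ± 0.025 (SE).

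Among 11 tested genes of sterol uptake, esterification and transfer, 3 rose and 6 fell (27.3% and 54.5%, beside 25.9% and 28.8% of all tested genes). Stard5, a sterol carrier, rose from 29.9 ± 0.566 to 52.9 ± 1.89 CPM and Tmem97, a sterol-responsive membrane protein, from 114 ± 0.702 to 163 ± 3.60 CPM (SD, n = 3 each). Gramd1a, which moves cholesterol from the plasma membrane, fell from 42.8 ± 1.89 to 19.7 ± 4.11 CPM (SD, n = 3 each). Soat1, which esterifies cholesterol, fell by 0.66 ± 0.027 on the log2 scale (SE). Among 22 tested genes of fatty acid supply, elongation and activation, 6 rose and 6 fell (27.3% each, near the shares of all tested genes). Slc25a1, the mitochondrial citrate carrier that supplies carbon for both pathways, fell from 14.9 ± 1.93 to 4.38 ± 0.118 CPM, and Elovl1, an elongase of very long chains, from 84.3 ± 7.78 to 39.3 ± 2.05 CPM (SD, n = 3 each). Hacd3, a dehydratase of elongation, and Acss2, which makes acetyl-CoA from acetate, rose by 0.52 ± 0.033 and 0.37 ± 0.079 (SE). Stard5, Gramd1a, Acss2 and Elovl1 share exonic bases with neighbouring genes. Among the genes named from these lists, adjusted p was highest for Dhdds (0.029), whose Dox libraries were at 69.1, 69.3 and 45.1 CPM, all above its vehicle libraries.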

How the data were processed

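RNA was measured by sequencing of 6 libraries, 3 Dox and 3 vehicle, after TRIzol extraction, per the labels' protocols. HISAT2 2.1.0, StringTie 1.3.3, FastQC 0.11.3, DESeq2 and the build GRCm38 are listed, per the submitters' processing notes, with no role or order. The authors deposited whole-number counts per gene symbol, not normalized. A deposited comparison of both groups gives, per the file headers, for each gene the mean signal after normalization, the log2 change and its error, a test score, the p-value and its adjusted form.

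Columns were matched to samples by the labels' descriptions. filterByExpr left 18067 of 29493 genes, libraries were scaled by TMM, and Dox was compared with vehicle over all genes with edgeR 4.0.16's quasi-likelihood test (limma 3.58.1, R 4.3.3) with no covariate, Benjamini-Hochberg adjustment over all tested genes and 0.05 as threshold. Standard errors were taken as the size of the log2 change divided by the root of F, and intervals are at 95%. The common biological coefficient of variation was 12.0%. With 3 against 3 libraries the smallest p that an exact permutation test of 1 gene can reach is 0.1, and such tests were left out. Levels per length use the union of GENCODE M21 exons, and genes sharing at least 50 exonic bases on either strand are named as overlapping; the strand setting of the authors' counting is not given in the sources used here. Promoters are RefSeq's (GRCm38.p6).

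The members and lists were chosen with earlier results of these data known. All members were named, with Klf13; from each list of other pathway genes, the 2 past the test in each direction with the largest change and a mean of at least 2 CPM were named, except 1 gene that is not reported here. Mmab and the Hmgcs1 promoter were chosen after their values were seen. The fit was checked on simulated data. Sampling noise alone was exceeded between all replicates of a group, with chi-square values of 12.1 to 15.1 times their degrees of freedom. The alternatives tried were scaling by upper quartile or by DESeq2 size factors, no filter or one at 5 CPM, the tests of DESeq2 1.42.0 and limma-voom, glmTreat at 1.2-fold, a threshold of 0.01, a replicate block, and the omission of each library. Offsets for transcript length and for GC content were chosen after seeing the data.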

Additional observations from a re-analysis of the deposited data

How the results depend on the processing

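Of the 26 called members, 18 kept their direction and call under all 17 alternatives, and the other 8 (Srebf1, Mvd, Fdps, Sc5d, Stard4, Abca1, Elovl5 and Fads1) lost the call under at least 1. Against a fold change of 1.2 with glmTreat, 7 members rose and 12 fell, 3 sterol enzymes fell, no fatty acid gene rose (0 of 8), and 2417 of all tested genes rose and 3615 fell; this test asks for a larger change. Fatty acid genes that rose numbered 2 with the length offset and 2 with the GC offset, where Fasn joined Fads1. Without 1 library, 10 to 12 members rose and 13 to 14 fell. The calls among sterol enzymes were then 6 to 7 higher and 5 lower, and among fatty acid genes 1 higher and 4 lower. Replicate numbers were treated as names only, since the deviations of Dox and vehicle libraries with the same number correlated at 0.034, 0.049 and -0.060 over 14635 genes. With the replicate block 11 members rose and 13 fell, and the calls of Abca1 (-1.17) and Elovl5 (-0.076) were lost.

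The median log2 change over all tested genes was 0.018 with the main scaling and 0.11 with upper-quartile scaling. Values of genes near 0 then changed sign: Lss was 0.085, Tm7sf2 0.0021, Scd1 0.021 and Elovl5 0.017, of which Elovl5 alone had been called. Lss was also positive at 0.011 with the filter at 5 CPM, 0.0996 with the length offset and 0.011 with the GC offset. Tm7sf2 was 0.032 with the GC offset. Scd1 was 0.043 and Pmvk -0.0089 with the length offset. With the GC offset Scd1 was called lower (-0.089, adjusted p = 0.018) and Pmvk higher (0.18, adjusted p = 0.028), and with upper-quartile scaling Acat2 was called higher (0.20, adjusted p = 0.029); with Hsd17b7 and Fasn these are the 5 uncalled members that gained a call under at least 1 alternative. Without 1 library, Lss ranged from -0.056 to 0.051, Tm7sf2 from -0.33 to 0.043, Msmo1 from -0.0031 to 0.30 and Dhcr7 from -0.37 to 0.39; none of these was called. The cause was not tested in any of these. Depth limits Abca1, Abcg1 and Tm7sf2, with at most 105 counts per library.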

Other observations

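The authors' deposited table calls 10 of the 36 members higher and 13 lower. The share of all genes that it calls is not given here, so these counts cannot be set against such a share. The 3 members called here but not there are Srebf1, Elovl5 and Abca1, with adjusted p of 0.0203, 0.125 and 0.115 in the authors' deposited table. Members marked as called in the authors' deposited table have adjusted p of at most 0.00103, and Srebf1 at 0.0203 is not marked. Calls in that table thus do not rest on an adjusted p under 0.05 alone. Its rule is not stated here, and the counts are not like for like. All 26 members called here have the same direction in it.

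By level per length, the order of the members was mostly kept at the top and shifted below it. Scd2, Fasn and Acat2 ranked 1st, 2nd and 3rd with vehicle and with Dox. Mvk moved from 13th to 6th, Nsdhl from 15th to 10th, Insig1 from 23rd to 13th and Idi1 from 25th to 16th. Hmgcs1 moved from 14th to 25th, Srebf2 from 4th to 15th and Insig2 from 20th to 27th. Ranks rest on the exon annotation, and neighbours in the order can differ by less than their spread, as Hmgcs1 (14.7 ± 1.22 CPM per kilobase) and Mvk (14.96 ± 0.395) did with vehicle (SD, n = 3 each).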
